A study of Mus musculus with 6 samples.

Results

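The levels of 10 immediate early and stress response genes were compared between TNBS-treated and normal mouse colon: Fos, Jun, Junb, Atf3, Egr1, Ier3, Dusp1, Zfp36, Gem and Gadd45b. They were chosen by name, with earlier results of these data known. All 10 were found among the 16906 protein-coding genes of the deposited count table. The comparison set 3 colon samples from C57BL/6J mice that received trinitrobenzenesulfonic acid (TNBS) at 5% w/v into the colon, a hapten used to provoke acute inflammation of the gut wall, against 3 colon samples from C57BL/6J mice on normal feeding. All samples are labelled as wild-type males of 6 to 8 weeks and 20 to 22 g. The normal mice are described by their feeding alone, so an effect of the intracolonic procedure and one of TNBS cannot be told apart. The labels do not say whether the replicates are separate animals, so p-values cover the spread between these 6 samples, which may be technical.

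Immediate early genes are transcribed within minutes of a stimulus by regulators that are already present in the cell, without new protein synthesis. Growth factors, cytokines, microbial products and physical stress reach them through MAP kinases, serum response factor, CREB and NF-kB, in epithelial, stromal and immune cells alike. Fos, Jun, Junb, Atf3 and Egr1 encode transcription factors that switch on later genes. Dusp1, Zfp36 and Ier3 encode inhibitors or modulators that shape and end the response, and Gem and Gadd45b encode signalling proteins induced by activation and stress.

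Elements that these regulators are known to bind were searched in the promoters of the genes. The RefSeq promoter table (build GRCm38.p6) matched 8 of the 10 genes, not Egr1 or Gem, with 250 bases before and 50 after each start of transcription. In these windows the sequence TGACG, the core of the CREB/ATF element, was found on either strand in 4 of 8 promoters, those of Fos, Junb, Dusp1 and Atf3, and in 20.8% of all 32851 promoters of the table. It overlapped no other motif searched. The 200 bases before the RefSeq start are shown 5′ to 3′ for these 4 genes, with TGACG, or its reverse complement CGTCA, in capitals. All distances are from that start. In the GENCODE vM21 annotation, used for gene positions below, the windows of Dusp1 and Atf3 lie within the gene.
Fos (chr12:85473690-85473889, + strand): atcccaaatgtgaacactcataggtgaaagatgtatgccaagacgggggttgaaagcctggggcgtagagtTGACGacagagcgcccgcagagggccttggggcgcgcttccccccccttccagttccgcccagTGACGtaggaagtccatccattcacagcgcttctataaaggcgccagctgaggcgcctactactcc
Junb (chr8:84978749-84978948, - strand): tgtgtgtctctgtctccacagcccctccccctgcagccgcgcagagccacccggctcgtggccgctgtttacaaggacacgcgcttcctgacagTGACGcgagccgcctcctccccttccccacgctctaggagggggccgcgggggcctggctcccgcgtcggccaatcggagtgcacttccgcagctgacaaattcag
Dusp1 (chr17:26508473-26508672, - strand): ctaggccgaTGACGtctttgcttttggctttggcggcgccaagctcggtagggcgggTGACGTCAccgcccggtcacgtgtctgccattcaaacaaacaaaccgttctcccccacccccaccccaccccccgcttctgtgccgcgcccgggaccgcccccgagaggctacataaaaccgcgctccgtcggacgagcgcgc
Atf3 (chr1:191183334-191183533, - strand): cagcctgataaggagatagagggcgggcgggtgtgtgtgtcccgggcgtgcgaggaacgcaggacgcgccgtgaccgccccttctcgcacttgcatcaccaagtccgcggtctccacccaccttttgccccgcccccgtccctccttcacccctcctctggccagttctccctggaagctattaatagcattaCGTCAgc
Fos held the element at 129 and 66 bases before the start, Junb at 106 and Atf3 at 7, while Dusp1 held it at 191 bases and, by matches on both strands, in the palindrome TGACGTCA that begins 143 bases before the start of transcription. Atf3, the only one of the 10 genes that was lower in every TNBS library, carries the same core as Fos, Junb and Dusp1, which were higher. A match describes letters in this window and is not evidence of binding.

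Other elements were each found in fewer of the 8 promoters. The NF-kB motif occurred in Fos and Ier3 (8.46% of all promoters), the CArG box of serum response factor in Zfp36 (1.63%), the Egr1 motif GCGNGGGCG in Zfp36 and Gadd45b (5.55%), and the AP-1 motif TGANTCA in none of the 8 (7.81%), all searched on both strands. Ier3, one of the genes that rose, is shown with its NF-kB motif in capitals, and Zfp36 with its CArG box in capitals. By vM21 positions, the window of Zfp36 lies within the gene and that of Ier3 runs past the start of the gene.
Ier3 (chr17:35821513-35821712, + strand): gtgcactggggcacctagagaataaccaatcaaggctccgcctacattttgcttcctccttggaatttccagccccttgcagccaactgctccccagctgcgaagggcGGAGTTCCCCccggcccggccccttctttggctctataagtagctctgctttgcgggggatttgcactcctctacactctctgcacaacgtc
Zfp36 (chr7:28379229-28379428, - strand): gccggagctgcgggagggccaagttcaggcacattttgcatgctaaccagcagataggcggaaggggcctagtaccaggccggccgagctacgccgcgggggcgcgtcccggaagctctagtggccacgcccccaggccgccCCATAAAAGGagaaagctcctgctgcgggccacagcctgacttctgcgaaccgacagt

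The TNBS libraries held 15185569 to 20537026 counts and the normal libraries 21624206 to 23380492, so 3 counts were worth 0.128 to 0.198 CPM (counts relative to the library's total, scaled by TMM). The lowest count of any of the 10 genes was 146. The libraries were not uniform in other respects. Summed transcripts of 4 Y-linked genes stood at 0.697%, 103% and 38.2% of the normal mean in TNBS replicates 1, 2 and 3, which goes against the male label of TNBS replicate 1, and at 92.1% to 114% in normal libraries. The positional gene Hoxb6 was at 8.95, 79.3 and 80.6 CPM in TNBS replicates 1, 2 and 3 and at 3.36 to 11.5 CPM in normal libraries. Another positional gene, Hoxb13, was at 21.4, 0.194 and 0.308 CPM in TNBS replicates 1, 2 and 3 and at 106, 57.7 and 7.37 CPM in normal replicates 1, 2 and 3, so the normal libraries were not alike either. Mitochondrially encoded genes took 0.755% to 3.92% of counts in TNBS libraries and 0.563% to 0.951% in normal libraries. The part of these differences in the results below was not tested, and results are given without these libraries where the calls change.

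Of the 10 genes, 9 were higher in every TNBS library than in any normal library and 1, Atf3, was lower in every one. Among all 14126 genes tested, the groups were separated in this way upward for 15.3% and downward for 14.8%. By edgeR's quasi-likelihood test, with p-values adjusted by Benjamini-Hochberg over all genes and a threshold of 0.05, Gem, Ier3 and Gadd45b rose and none of the 10 fell. Of all tested genes 0.906% were called higher and 1.14% lower. DESeq2 called 8 of the 10 higher and Atf3 lower, against 4.71% of all tested genes higher and 4.81% lower. With limma-voom 4 were higher and 0 lower, against 0.566% of all tested genes higher and 1.03% lower. All 10 had an unadjusted p under 0.05, as did 21% of all genes tested. The median log2 fold change (TNBS over normal) was 1.38 for the 10 genes and 0.0073 for all tested genes. Tissue was sequenced whole, so a change in the share of cells that express a gene and a change in its RNA per cell cannot be told apart.

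**Figure D1:**
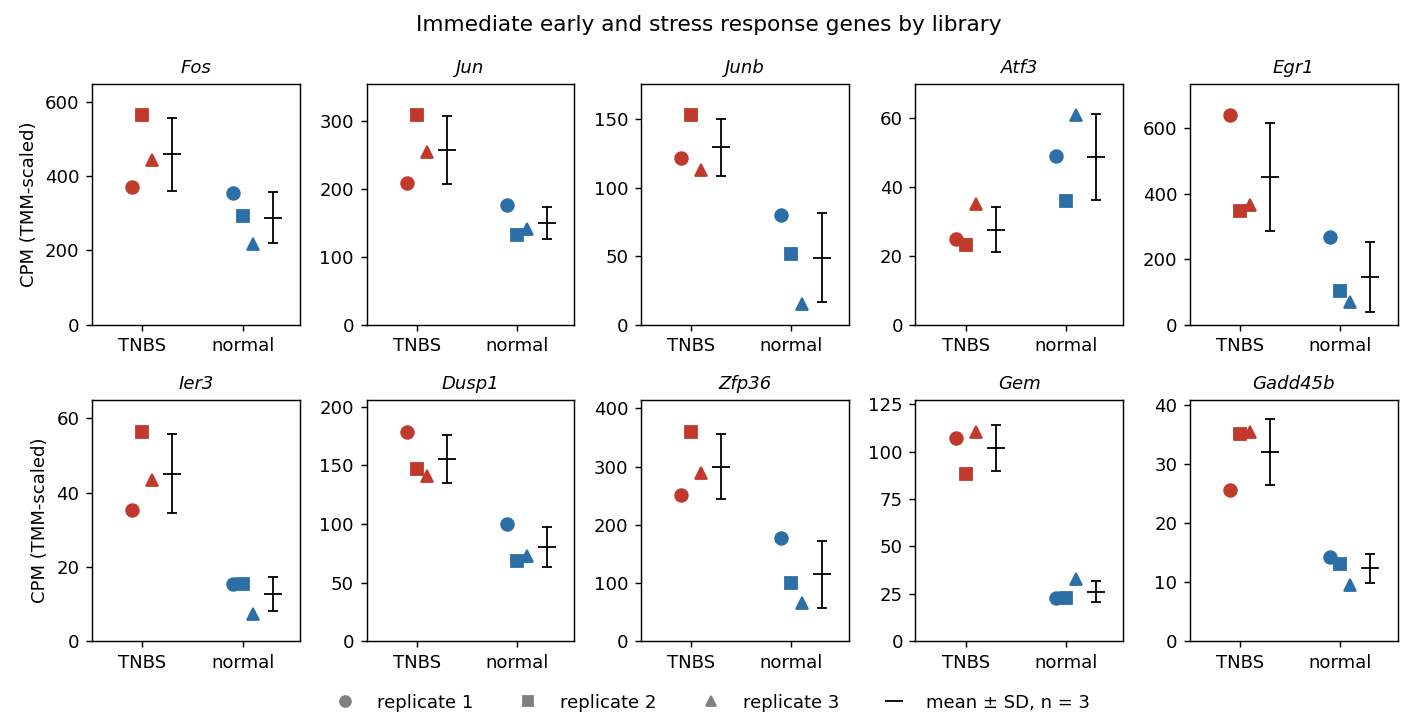
Level of each gene in every library, in TMM-scaled CPM on linear axes that start at 0; symbols mark the replicate and bars the mean ± SD (n = 3). The groups do not overlap in any panel; the gap is narrow for Fos, with 370 CPM in the lowest TNBS library and 355 CPM in the highest normal library, and for Atf3, and wide for Gem.

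Among the transcription factors, the AP-1 subunits Fos and Jun had the smallest log2 fold changes. Fos, which pairs with Jun proteins to form AP-1, had 370, 564 and 443 CPM in TNBS replicates 1 to 3, against 355, 292 and 217 CPM in normal replicates 1 to 3. TNBS replicate 1 lay just above normal replicate 1. The means were 459 ± 98.1 CPM in TNBS and 288 ± 69.0 CPM in normal colon (SD, n = 3). The log2 fold change was 0.67 (SE 0.24, edgeR adjusted p = 0.175), and none of the 15 alternative fits brought Fos past the threshold. Fos (ENSMUSG00000021250) lies on chromosome 12 from 85473890 to 85477273 in GENCODE vM21, on GRCm38, which is also the source of the positions below.

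Jun, the partner of Fos, had 209, 309 and 254 CPM in the TNBS libraries and 176, 133 and 141 CPM in the normal libraries. Its log2 fold change was 0.78 (SE 0.21, edgeR adjusted p = 0.0953), with a 95% interval of 1.24-fold to 2.38-fold. Without TNBS replicate 1, Jun passed the threshold (log2 fold change 0.91, adjusted p = 0.0361). Jun lies on chromosome 4 from 95049034 to 95052222, where the antisense RNA Junos shares 232 of the 3189 exonic bases of Jun, so part of its count is uncertain if strand was not used.

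Junb, an AP-1 subunit that is a weaker activator than Jun and can restrain it, had 122, 153 and 113 CPM in the TNBS libraries, against 80.1, 51.6 and 15.1 CPM in the normal libraries. The normal libraries covered a 5.29-fold range and the TNBS libraries a 1.35-fold range. The log2 fold change of 1.40 had a wide error (SE 0.48, edgeR adjusted p = 0.153), and without normal replicate 3, the lowest library, it was 0.97 (adjusted p = 0.148). Junb lies on chromosome 8 from 84974484 to 84978718 and shares 173 of its 2301 exonic bases with Prdx2 on the other strand.

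Egr1, a zinc finger factor induced by serum and stress, had 641, 347 and 365 CPM in the TNBS libraries and 269, 104 and 68.2 CPM in the normal libraries. Replicate 1 was the highest library of each group. The log2 fold change was 1.62 (SE 0.48, edgeR adjusted p = 0.118). Without normal replicate 1 it was 2.39, and Egr1 then passed the threshold (adjusted p = 0.0485). The gene lies on chromosome 18.

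Atf3, a factor of the CREB/ATF family that is strongly induced by many stresses and often acts as a repressor, stood apart from the other 9 genes. It had 24.7, 23.0 and 34.9 CPM in the TNBS libraries, against 48.9, 35.9 and 60.7 CPM in the normal libraries. The gap between the groups was narrow, with TNBS replicate 3 just under normal replicate 2. The means were 27.5 ± 6.42 CPM in TNBS and 48.5 ± 12.4 CPM in normal colon (SD, n = 3). The log2 fold change was -0.82 (SE 0.26, edgeR adjusted p = 0.134), with a 95% interval of 0.378-fold to 0.853-fold. It stayed below 0 in each of 15 alternative fits, from -1.08 to -0.62, and passed the threshold in 1 of them, DESeq2 (adjusted p = 0.0481). Atf3 (ENSMUSG00000026628) lies on chromosome 1 from 191170296 to 191218039.

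**Figure D2:**
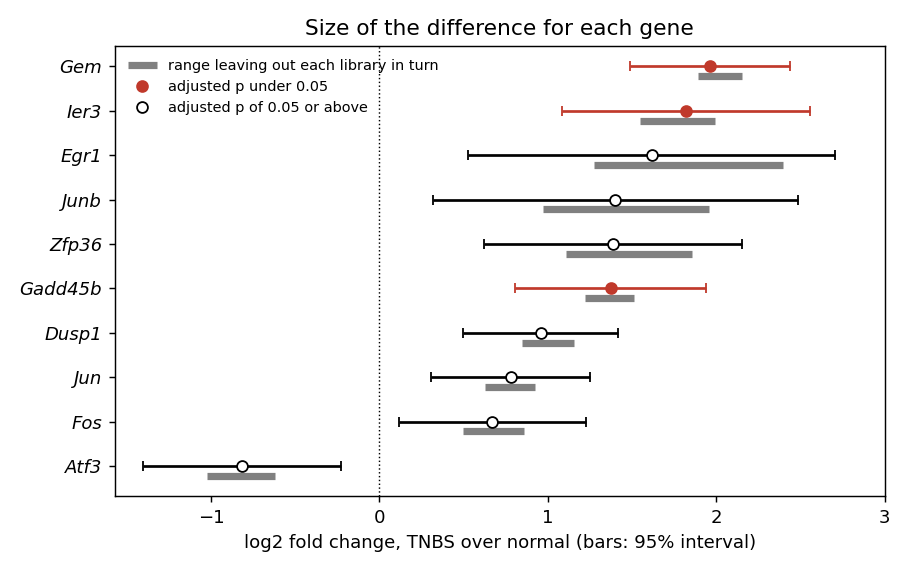
Log2 fold change of each gene, TNBS over normal, with its 95% interval from edgeR; filled red points passed an adjusted p of 0.05, and grey bars span the values when each library is left out in turn. Gem, at 1.96, has the highest value and Atf3, at -0.82, is the only gene left of 0; no grey bar crosses 0.

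Among the inhibitors and modulators, Ier3 rose, while Dusp1 and Zfp36 were higher in every TNBS library without passing the test. Ier3, a short-lived stress-induced protein that modulates cell survival and NF-kB and ERK signalling, had 35.4, 56.4 and 43.5 CPM in the TNBS libraries and 15.4, 15.5 and 7.37 CPM in the normal libraries. Every TNBS library was above 2 times the highest normal library. Mean levels were 45.1 ± 10.6 CPM in TNBS and 12.8 ± 4.67 CPM in normal colon (SD, n = 3), a 3.53-fold rise with a 95% interval of 2.12-fold to 5.89-fold (log2 fold change 1.82, SE 0.33, edgeR adjusted p = 0.0338). Ier3 kept its call without TNBS replicate 1 (adjusted p = 0.0131) and lost it without TNBS replicate 2 (0.0960) or 3 (0.0805) and without normal replicate 1 (0.0747), 2 (0.133) or 3 (0.0666), at log2 fold changes of 1.54 to 1.99. Ier3 (ENSMUSG00000003541) lies on chromosome 17 from 35821684 to 35822923.

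Dusp1, a phosphatase that inactivates p38, JNK and ERK in the nucleus, had 179, 147 and 141 CPM in the TNBS libraries against 99.6, 68.0 and 72.5 CPM in the normal libraries. The replicates were close in both groups, and the log2 fold change of 0.96 had a small error (SE 0.20, edgeR adjusted p = 0.0510). It passed the threshold without TNBS replicate 1 (adjusted p = 0.0479) and in 7 of 15 alternative fits in all. Dusp1 lies on chromosome 17 from 26505590 to 26562128 and overlaps Ergic1 on the other strand, with 11 exonic bases in common.

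Zfp36, also called tristetraprolin, binds AU-rich elements in cytokine mRNAs and promotes their decay. It had 251, 360 and 289 CPM in the TNBS libraries and 178, 100 and 66.1 CPM in the normal libraries. The log2 fold change was 1.39 (SE 0.34, edgeR adjusted p = 0.0775). Zfp36 passed without TNBS replicate 1 (adjusted p = 0.0394) and without normal replicate 1 (0.0485), where its log2 fold change was 1.86. Zfp36 lies on chromosome 7 from 28376784 to 28380253 and shares 125 of 3470 exonic bases with the antisense gene Gm44710.

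The signalling proteins Gem and Gadd45b both rose, and Gem had the smallest p of the 10 genes. Gem, a small GTPase of the RGK family that inhibits voltage-gated calcium channels, had 107, 88.1 and 110 CPM in the TNBS libraries, against 23.0, 22.8 and 32.6 CPM in the normal libraries. Replicates of a group lay close together and the groups were far apart. Levels averaged 102 ± 12.1 CPM in TNBS and 26.2 ± 5.58 CPM in normal colon (SD, n = 3), a 3.89-fold rise with a 95% interval of 2.80-fold to 5.41-fold (log2 fold change 1.96, SE 0.21, edgeR adjusted p = 0.00698). By p, Gem ranked 12 among all 14126 genes. It kept its call in 14 of 15 alternative fits, and without normal replicate 2 the adjusted p was 0.0569 at a log2 fold change of 1.89. Gem (ENSMUSG00000028214) lies on chromosome 4 from 11704457 to 11714752.

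Gadd45b, which binds MAP kinase kinases and is induced by genotoxic and inflammatory stress, had 25.6, 35.1 and 35.6 CPM in the TNBS libraries and 14.4, 13.2 and 9.59 CPM in the normal libraries. The lowest TNBS library was well above the highest normal library. Means of 32.1 ± 5.61 CPM in TNBS and 12.4 ± 2.48 CPM in normal colon (SD, n = 3) gave a 2.59-fold rise with a 95% interval of 1.75-fold to 3.84-fold (log2 fold change 1.37, SE 0.25, edgeR adjusted p = 0.0359). The call held without TNBS replicate 1 (adjusted p = 0.0137) and was lost without TNBS replicate 2 (0.103) or 3 (0.120) and without normal replicate 1 (0.0781), 2 (0.152) or 3 (0.0954), at log2 fold changes of 1.22 to 1.51. Gadd45b (ENSMUSG00000015312) lies on chromosome 10 from 80930073 to 80932204.

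The 10 genes did not all vary in step among the libraries, though parts of the order were shared. Among the 9 higher genes, TNBS replicate 2 was the highest TNBS library for 5 (Fos, Jun, Junb, Ier3 and Zfp36), and TNBS replicate 1 for Egr1 and Dusp1. In the normal group, replicate 1 was the highest for 7 of the 9 and replicate 3 the lowest for 6. Egr1 and Junb varied most between normal libraries, with coefficients of variation of 72.7% and 66.5%, against 36.5% and 16.1% in TNBS libraries. Jun varied least in normal libraries, at 15.4%, and Gem least in TNBS libraries, at 11.9%. Levels relative to the normal mean (log2 CPM, prior count 2) had a median over the 10 genes of 1.21, 1.50 and 1.48 in TNBS replicates 1 to 3, against 0.33, -0.12 and -0.36 in normal replicates 1 to 3.

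**Figure D3:**
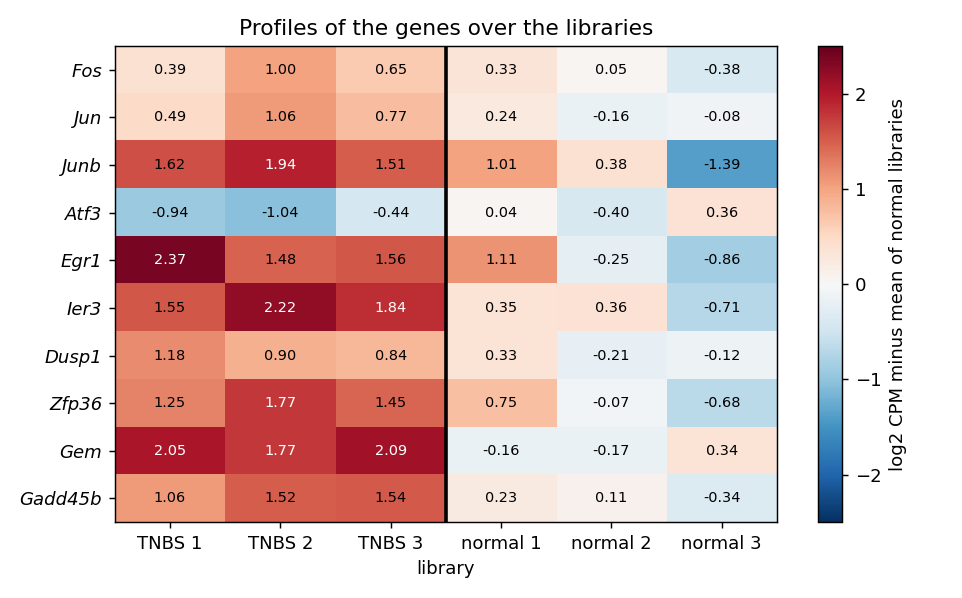
Difference of log2 CPM from the mean of the normal libraries (colour and printed value) for each gene and library, TNBS left of normal. Gem and Ier3 are red in every TNBS library, at 1.55 or more, Atf3 is blue in every TNBS library, and normal replicate 1 is above 0 for Junb (1.01) and Egr1 (1.11).

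Levels between genes were compared per length, as counts per kilobase of vM21 exon scaled to a fixed sum (TPM). In TNBS colon the order of mean levels was Fos (709 ± 71.9 TPM), Egr1 (380 ± 177), Zfp36 (315 ± 22.4), Jun (294 ± 25.6), Junb (206 ± 19.2), Gem (180 ± 37.8), Dusp1 (175 ± 39.9), Ier3 (145 ± 17.8), Gadd45b (73.8 ± 8.99) and Atf3 (47.4 ± 12.8 TPM; SD, n = 3). The values of neighbours in this order overlapped from Egr1 to Jun and from Junb to Ier3, and did not between Fos and Egr1, Jun and Junb, Ier3 and Gadd45b, or Gadd45b and Atf3. In normal colon Fos was also first (427 ± 105 TPM), and all neighbours below it overlapped, from Jun (164 ± 30.4 TPM) through Atf3 in place 6 (79.1 ± 23.0 TPM) to Gadd45b (27.1 ± 5.32 TPM). Atf3 was thus in place 10 in TNBS colon and in place 6 in normal colon, within the overlap just given. The exon lengths of Dusp1 and Atf3 include long alternative transcripts of vM21, and that of Zfp36 spans the whole gene, 3470 bases, intron included, which lowers the TPM of all 3.

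The genes whose profile over the 6 libraries lay closest to the median profile of the 10 genes were H2-Q4, Htra3, H2-Q6, Rcl1 and Il4ra, out of 12142 genes with a mean of at least 50 counts. Their root mean square differences from it were 0.129 to 0.172 on the log2 scale. The 10 genes themselves ranged from 0.122 for Gadd45b to 1.60 for Atf3. H2-Q4 and H2-Q6 are closely similar class I histocompatibility genes whose counts may share reads, Htra3 is a secreted serine protease, Rcl1 takes part in ribosomal RNA processing, and Il4ra is a receptor chain for interleukins 4 and 13.

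Genes upstream and in the same families were compared as lists chosen for their role. Over all tested genes, edgeR called 0.906% higher and 1.14% lower, DESeq2 4.71% and 4.81%, and limma-voom 0.566% and 1.03%. Of 19 upstream kinases and serum response factors none passed edgeR's test, 3 had an unadjusted p under 0.05, and the median log2 fold change was 0.19. Separation of the groups was upward for 5 and downward for 3, against 15.3% and 14.8% of all tested genes. DESeq2 called 1 of the 19 lower and limma-voom 0. The gene was Map2k1, which encodes the ERK kinase MEK1 and had the smallest p in edgeR, with 103 ± 14.3 CPM in TNBS and 170 ± 31.4 CPM in normal colon (SD, n = 3; adjusted p = 0.103). Of 12 other AP-1 and Maf genes, 11 had a higher mean in TNBS colon, against 7141 of all 14126 tested genes. Separation of the groups was upward for 4 (Fosb, Jdp2, Maff and Maf) and downward for 0. None of the 12 passed in edgeR, DESeq2 or limma-voom (4 at an unadjusted p under 0.05, median 0.42). Fosb came closest, with 121, 77.3 and 66.1 CPM in TNBS and 54.6, 53.5 and 48.1 CPM in normal libraries (adjusted p = 0.128).

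Of 15 other immediate early genes 1 rose and none fell, with a median of 0.31. A higher mean in TNBS colon was found for 13 of the 15, against 7141 of all 14126 tested genes. The groups were separated upward for 6 (Egr2, Klf2, Ier2, Ier5, Nfil3 and Bhlhe40) and downward for 1 (Klf4), against 15.3% and 14.8% of all tested genes. By DESeq2 4 were higher and 1 lower, with 1 each way by limma-voom. The gene that rose was Nfil3, a leucine zipper repressor induced by cytokines, which had 30.3, 36.0 and 20.6 CPM in TNBS and 4.14, 3.17 and 9.09 CPM in normal libraries (log2 fold change 2.41, SE 0.42, edgeR adjusted p = 0.0328). Its call was lost without TNBS replicate 2 (adjusted p = 0.0909) and without normal replicate 1 (0.0929) or 2 (0.138). Klf4, an epithelial differentiation factor picked after its values were seen, was lower in every TNBS library, at 500 ± 32.1 CPM against 864 ± 40.3 CPM in normal colon (SD, n = 3; edgeR adjusted p = 0.0631). Among 9 genes of the integrated stress response, the pathway through eIF2 alpha phosphorylation that can induce Atf3, 8 had a higher mean in TNBS colon. Separation of the groups was upward for 4 (Atf4, Ppp1r15a, Ddit4 and Cebpb) and downward for 0. None of the 9 passed in edgeR (2 at an unadjusted p under 0.05, median 0.42), while DESeq2 called 2 higher and limma-voom 0. Ppp1r15a, a phosphatase subunit that ends this response, came closest, with 58.3 ± 8.33 CPM in TNBS and 29.5 ± 6.38 CPM in normal colon (edgeR adjusted p = 0.0593, and 0.0458 without TNBS replicate 1).

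No relative of the inhibitors passed edgeR's test. Of 13 other MAP kinase feedback inhibitors, which include Dusp, Spry and Spred genes, none passed in edgeR, DESeq2 or limma-voom. An unadjusted p under 0.05 was found for 1. The groups were separated upward for 0 and downward for 1 (Spred2), against 15.3% and 14.8% of all tested genes. The list's median was 0.09, and the smallest p belonged to Spry1, a receptor kinase inhibitor, with 24.8 ± 8.48 CPM in TNBS and 14.9 ± 1.63 CPM in normal colon (adjusted p = 0.196). None of 8 other mRNA decay and stability genes passed in edgeR (4 at an unadjusted p under 0.05, median 0.06), while DESeq2 called 2 higher and limma-voom 0. Separation of the groups was upward for 3 and downward for 2 of the 8. Zc3h12a, the endonuclease Regnase-1, had the smallest p, with 54.4 ± 21.1 CPM in TNBS and 23.3 ± 7.15 CPM in normal colon (edgeR adjusted p = 0.0999, and 0.0336 without TNBS replicate 1). None of 5 other Gadd45 and RGK genes passed in edgeR, DESeq2 or limma-voom, 0 had an unadjusted p under 0.05, and their median was 0.09. Separation of the groups was upward for 0 and downward for 1 (Rem2). Rem2, an RGK GTPase, had 0.365 ± 0.173 CPM in TNBS and 0.993 ± 0.375 CPM in normal colon (adjusted p = 0.366).

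Among mRNAs that Zfp36 is known to destabilise, 2 of 10 tested rose and none fell, with a median log2 fold change of 2.06. DESeq2 called 4 higher and limma-voom 1. The shares of all tested genes called higher were 0.906% in edgeR, 4.71% in DESeq2 and 0.566% in limma-voom. Separation of the groups was upward for 5 and downward for 1 (Il10), against 15.3% and 14.8% of all tested genes. Socs3, an inhibitor of cytokine signalling, had 105, 156 and 92.7 CPM in TNBS and 22.9, 13.1 and 14.6 CPM in normal libraries (edgeR adjusted p = 0.00676), with TNBS replicate 2 the highest library, as for Zfp36. It was called in all 15 alternative fits. Cxcl2, a neutrophil attractant, had 19.5, 6.01 and 2.93 CPM in TNBS and 0.654, 0.0453 and 0.353 CPM in normal libraries (edgeR adjusted p = 0.0451). Its normal values rest on only 15, 1 and 7 counts. The call was kept in 1 of the 6 fits that left out a library, the one without TNBS replicate 3, and the adjusted p was 0.0551 to 0.160 in the others and 0.179 in limma-voom.

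Of 16 secreted and matrix genes that AP-1 can drive, 2 rose and none fell, with a median of 1.18, while DESeq2 called 7 higher and limma-voom 0. Among all tested genes 0.906%, 4.71% and 0.566% were called higher by edgeR, DESeq2 and limma-voom. Separation of the groups was upward for 8 and downward for 0, against 15.3% and 14.8% of all tested genes. The 2 genes that rose were matrix proteases. Mmp3 was at 68.5, 20.5 and 11.0 CPM in TNBS and 1.11 to 2.97 CPM in normal libraries (edgeR adjusted p = 0.0319). Mmp10 was at 47.7, 12.7 and 9.70 CPM in TNBS and 2.09 to 3.85 CPM in normal libraries (edgeR adjusted p = 0.0464). Both calls were kept without TNBS replicate 1 or 3 and lost without TNBS replicate 2 and without each normal library, at adjusted p of 0.0552 to 0.152 for Mmp3 and 0.0714 to 0.167 for Mmp10. In limma-voom the adjusted p was 0.117 for Mmp3 and 0.115 for Mmp10. For Cxcl2, Mmp3 and Mmp10 TNBS replicate 1 was the highest library, as for Egr1 and Dusp1. Fos, Jun, Junb, Ier3 and Zfp36 were highest in TNBS replicate 2, as was Socs3. A link between these orders was not tested.

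Stress genes of other pathways did not all point the same way. Of 13 heat shock genes 1 rose and none fell, while the median was -0.53. The gene that rose was the small chaperone Hspb8, at 73.1 ± 11.7 CPM in TNBS and 25.9 ± 2.34 CPM in normal colon (edgeR adjusted p = 0.0128), whose call was lost without normal replicate 2 (0.0721) or 3 (0.0510). The groups were separated upward for 3 genes (Hspb8, Hspb1 and Hsf1) and downward for 3 (Hspa1b, Hsp90aa1 and Hsph1). Of all tested genes 15.3% were separated upward and 14.8% downward. Of the 13, 2 were higher and 3 lower by DESeq2, and 1 was higher and 0 lower by limma-voom. DESeq2 called 4.71% of all tested genes higher and 4.81% lower, and limma-voom 0.566% and 1.03%. Hspb1, a small chaperone picked after its values were seen, had 61.8, 42.9 and 38.3 CPM in TNBS and 25.5, 27.1 and 22.3 CPM in normal libraries (edgeR adjusted p = 0.0821). Among the lower genes, the inducible chaperone Hspa1b, also picked after its values were seen, had 15.7, 23.4 and 23.8 CPM in TNBS and 33.6, 73.3 and 68.3 CPM in normal libraries (adjusted p = 0.0536). Hsph1, picked in the same way, had 75.0, 32.0 and 79.4 CPM in TNBS and 109, 187 and 357 CPM in normal libraries (adjusted p = 0.0862). Counts of Hspa1b are uncertain, since Hspa1a is nearly identical, and Hspa1a overlapped between the groups, with 12.8, 29.6 and 18.6 CPM in TNBS and 13.0, 33.8 and 41.0 CPM in normal libraries. Among 10 genes of the p53 and DNA damage response, separation of the groups was upward for 2 and downward for 2. None of the 10 passed in edgeR (4 at an unadjusted p under 0.05, median 0.41), while by DESeq2 1 was higher and 1 lower, and limma-voom called 0. Ccng1, a p53 target, came closest, with 171 ± 23.9 CPM in TNBS and 259 ± 43.7 CPM in normal colon (adjusted p = 0.143).

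**Figure D4:**
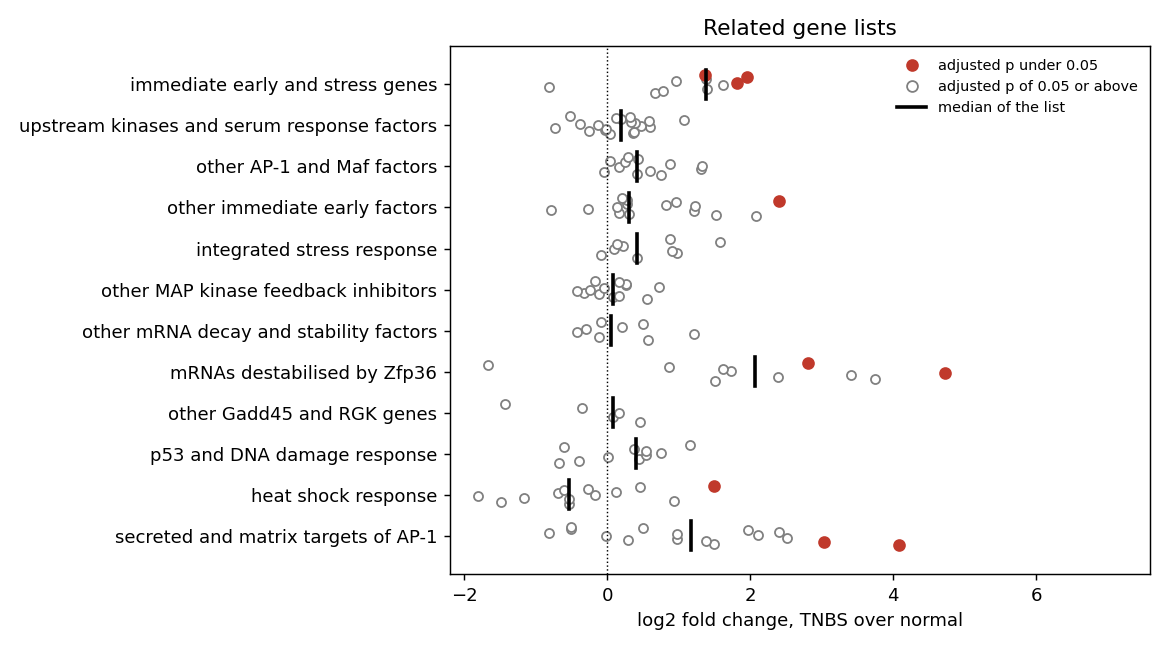
Log2 fold change, TNBS over normal, of every tested gene in the 10 examined genes and 11 related lists; black bars are list medians and filled red points passed an adjusted p of 0.05. The medians are 1.38 for the examined genes and -0.53 for heat shock genes, and among the other lists 2.06 for mRNAs destabilised by Zfp36, 1.18 for AP-1 targets and 0.06 to 0.42 for the remaining 8.

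Markers of some cell types differed between the groups, and the part of cell types in these results was not tested. Colon epithelial markers were present in every library, with 8 genes summing to 7002 to 12872 CPM in TNBS and 9639 to 12331 CPM in normal libraries. Car1 held much of the TNBS sums, at 658, 2799 and 5881 CPM in replicates 1 to 3, against 1125, 1108 and 2463 CPM in normal libraries. The groups were separated downward for 4 of the 8 (Epcam, Cdh1, Krt20 and Slc26a3) and upward for 0, against 14.8% and 15.3% of all tested genes. None of the 8 passed in edgeR, while DESeq2 called 2 and limma-voom 1 lower (4 at an unadjusted p under 0.05). Of 6 tested neutrophil markers 4 rose (S100a8, S100a9, Mmp8 and Cxcr2), and the sum over 7 genes was 73.8 to 252 CPM in TNBS and 1.82 to 15.8 CPM in normal libraries, with Csf3r at 0 in a TNBS library and S100a8, Mmp8 and Retnlg at 0 in a normal library. DESeq2 called 5 of the 6 higher and limma-voom 1, Mmp8, with an adjusted p of 0.0579 for S100a9, 0.123 for S100a8 and 0.139 for Cxcr2. The sum was highest in TNBS replicate 2 and lowest in normal replicate 3. Ly6g, not called in edgeR (adjusted p = 0.120), held most of the normal sums, at 15.0, 10.6 and 1.36 CPM in replicates 1 to 3. In TNBS replicate 2 Ly6g was at 133 CPM. TNBS replicate 2 and normal replicate 3 were also the highest library for 5 and the lowest for 6 of the 9 higher genes in their groups. A link between the sum and these genes was not tested. Of 6 endothelial markers 1 rose, Cdh5 (2 in DESeq2 and 1 in limma-voom), with sums of 257 to 404 CPM in TNBS and 158 to 166 CPM in normal libraries. Of 5 goblet cell markers 1 fell, Fcgbp (1 also in DESeq2 and in limma-voom, and 1 other higher in DESeq2), with sums of 3324 to 11387 CPM in TNBS and 19121 to 31779 CPM in normal libraries. When each library was left out in turn, Cxcr2 was called in 0, Cdh5 in 1 and Fcgbp in 4 of 6 fits, and S100a9 in all 6. None of 6 smooth muscle markers passed in edgeR or limma-voom, but 3 had an unadjusted p under 0.05 and 3 were lower in DESeq2, with sums of 3512 to 5647 CPM in TNBS and 6640 to 8778 CPM in normal libraries. No marker of monocytes and macrophages (sums of 77.1 to 190 CPM in TNBS and 75.4 to 126 CPM in normal libraries, Csf1r at 0 in a library of each group), T cells (34.2 to 59.3 and 17.1 to 34.3 CPM), B cells (12.0 to 21.1 and 3.94 to 128 CPM), fibroblasts (839 to 3748 and 2131 to 2351 CPM) or enteric neurons and glia (39.5 to 59.5 and 45.2 to 66.3 CPM) passed in edgeR or limma-voom; the first range of each pair is for TNBS libraries. At an unadjusted p under 0.05 there were 1, 3, 0, 1 and 1 in these 5 lists, and DESeq2 called 1 macrophage marker and 1 of the neuronal list lower and 2 T cell markers higher. Squamous, skeletal muscle and fat markers summed to at most 51.1 CPM in TNBS and 35.4 CPM in normal libraries, and none passed in edgeR, DESeq2 or limma-voom (0 at an unadjusted p under 0.05).

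The libraries that stood apart changed how many of the 10 genes were called, not their direction. Without TNBS replicate 1, which lacked Y-linked transcripts, 6 genes were higher (Dusp1, Gadd45b, Gem, Ier3, Jun and Zfp36), where 3.67% of all tested genes were called higher. When TNBS replicate 2 stood alone against the normal group, Gem and Ier3 were higher (2.26% of all genes), and when TNBS replicate 1 stood alone, Gem was higher (0.201%). Both fits take the spread from the normal libraries and assume it for the single TNBS library. Without TNBS replicate 2 or 3, or without normal replicate 3, Gem was the only gene called (0.208%, 0.298% and 0.124% of all genes). Without normal replicate 1 the called genes were Egr1, Gem and Zfp36 (0.263%), and without normal replicate 2 there were 0 (0.0483%), with 9 of the 10 at an unadjusted p under 0.05 and all 10 keeping their direction. With no filter on low counts Dusp1 and Zfp36 were also called (1.24%). The 8 genes that DESeq2 called higher were all but Fos and Atf3, where it called 4.71% of all genes higher and 4.81% lower, and limma-voom added Dusp1 to the called genes (0.566%).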

How the data were processed

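RNA was sequenced from 6 colon samples, 3 per group, grouped by the treatment label with replicate numbers from the sample titles. The authors deposited whole-number read counts per gene, per the file headers; CASAVA 1.8, HISAT2 and the build mm10 are named in the submitters' processing notes. The counting tool, the annotation and whether strand was used: not given in the sources used here. A second set of 6 columns of normalized values was not used.

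In edgeR 4.0.16 (R 4.3.3), filterByExpr with a minimum count of 10 and a minimum total of 15 passed 14126 genes, all 10 examined genes among them, and libraries were scaled by TMM. TNBS was compared with normal by a two-sided quasi-likelihood test with group as the only term, Benjamini-Hochberg adjustment over all tested genes and a threshold of 0.05. Standard errors come from the F statistic. Alternatives were DESeq2 1.42.0, limma-voom (limma 3.58.1), other scalings and filters, a replicate block and leaving out libraries; fits with 1 TNBS library were added after seeing the data. The steps were tested on simulated data. The 10 genes, the lists and the rule for named genes were chosen with earlier results of these data known. Named genes were all 10 members, every called gene of a list or, where none was called, the one with the smallest p, and the 5 nearest profiles. Coordinates are 1-based, from GENCODE vM21 (GRCm38, which corresponds to mm10). No library was a copy of another, since the chi-square between libraries of a group was at least 38.4 times its degrees of freedom.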

Additional observations from a re-analysis of the deposited data

How the results depend on the processing

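Of 150 alternative values for the 10 genes (15 for each), none changed direction; 14 lost and 18 gained a call. Against 128 genes called higher and 161 lower, DESeq2 called 666 and 679, scaling by library totals 196 and 102, no filter 209 and 210, and limma-voom 80 and 146. Library totals moved the median log2 fold change of all genes to 0.15, from 0.0073 with TMM, and that of the 10 genes to 1.50. Leaving out each library in turn gave 7 to 532 higher and 11 to 576 lower. TNBS replicate 2 alone gave 338 and 480, and TNBS replicate 1 alone 30 and 33. Of the 10 genes, 3 were called higher and 0 lower; DESeq2 called 8 and 1, no filter 5 and 0, leaving out each library 0 to 6 and 0, and TNBS replicate 1 alone 1 and 0. The cause of these changes was not tested. With the replicate block 5 of the 10 genes were called higher (Egr1 and Dusp1 in addition, at adjusted p = 0.0186 and 0.0421) against 1.08% of all genes. There 153 were higher and 207 lower, and Mmp10 (0.0512) and Cxcr2 (0.0667) lost their calls. Same-numbered libraries correlated by 0.0055, 0.015 and 0.035 in their deviations. TNBS replicates 1 and 3 correlated most with the normal library of the same number, and TNBS replicate 2 with normal replicate 1 (0.017). Values this near 0 cannot decide whether the samples are paired. The labels do not say that the numbers pair the samples, so they were not taken to. Depth was at least 146 counts for each of the 10 genes in every library, and there were 3 libraries a group.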
